A study of Homo sapiens with 21 samples.

Results

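RNA sequencing of PC-9 cells sorted for low surface EGFR was compared with that of the unsorted parental cells they came from. The comparison used 6 of the 21 libraries of the series, 3 of EGFR-low and 3 of parental cells, and 11305 of the 20111 genes listed, those with at least 1 FPKM (fragments per kilobase of transcript, scaled to the total of mapped fragments) in at least 3 of the 9 untreated libraries. PC-9 is an established human lung adenocarcinoma line driven by an activating deletion in EGFR, which the labels give for all groups. The EGFR-low population had been stained for EGFR and sorted over repeated rounds for the cells at the lower end of the stain, EGFR-high cells likewise at the upper end, and parental cells were not sorted for EGFR. All 9 untreated libraries (3 per group) were made from cells harvested 24 h after seeding in RPMI with fetal bovine serum. The 12 other libraries come from a second experiment, in which EGFR-low and EGFR-high cells were kept for 72 h in DMSO or in 1 µM SAHA (vorinostat), an inhibitor of histone deacetylases, with no parental group. All groups are subpopulations of 1 cell line, so the replicates measure repeat cultures and not different tumours.

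EGFR is a receptor tyrosine kinase that binds ligands such as amphiregulin, epiregulin, TGFα and HB-EGF, pairs with itself or with ERBB2 and ERBB3, and signals through RAS and ERK, PI3K and AKT. In lung adenocarcinoma an activating deletion makes the kinase signal without ligand, and the tumour cells come to depend on it. Parental cells hold the mixture from which the sorts were made, so the comparison asks how far the EGFR-low state departs from the starting population, apart from how it differs from the opposite sort.

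The summed FPKM of a library ran from 467897 to 592942 and was highest in replicate 2 of each group. The sequencing depth is unknown, because the files give no read counts. The mitochondrially encoded genes held 11.8, 8.95 and 6.58% of the FPKM in EGFR-low and 10.1, 12.2 and 13.2% in parental libraries. The correlation of a gene's log2(FPKM + 1), relative to its mean over the 9 libraries, with its GC content was 0.24, -0.33 and 0.44 in EGFR-low replicates 1 to 3 and -0.44, 0.02 and -0.60 in parental replicates 1 to 3. Across 11184 genes the EGFR-low to parental difference itself correlated with GC content (Pearson r = 0.396, a description over genes that share 6 libraries). The part of GC content in the results below was tested by removing a smooth trend on GC content and length from every library. The values without that trend are given where they change a call, and for some of the fold changes that moved. Other fold changes moved without a change of call. Without the trend they were 1.93 for TERT, 2.26 for GDF15 and -1.85 for L1CAM. The third principal component, with 21.5% of the variance, placed EGFR-low libraries at -29.9 to -28.3, parental libraries at -1.27 to 15.4 and EGFR-high libraries at 17.2 to 27.7, whereas the first, with 36.4%, mixed the groups. Replicate 2 of EGFR-low cells correlated more with replicate 2 of parental cells (Pearson r = 0.965 across genes) than with EGFR-low replicates 1 and 3 (0.938 and 0.935). All 7 epithelial tumour cell markers were present, with a summed FPKM of 1802 to 3016 in EGFR-low and 2077 to 3213 in parental libraries. Of 8 fibroblast markers only COL1A1 reached 1 FPKM, the list summed to 1.59 to 5.90 in EGFR-low and 1.09 to 1.61 in parental libraries, and DCN and LUM were at 0 throughout. Of 7 endothelial markers CDH5 and ESAM reached 1 FPKM and CLDN5 was at 0, with sums of 9.73 to 14.3 in EGFR-low and 4.47 to 11.3 in parental libraries. Of 9 leukocyte markers only CD68 reached 1 FPKM and CD3D, MS4A1 and CD163 were among those at 0, with sums of 16.96 to 37.8 and 22.6 to 25.6.

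EGFR-low cells differed from parental cells in 181 genes, which was 1.60% of those tested. Of these 94 rose (0.831% of those tested) and 87 fell (0.770%). The test was limma with a mean-variance trend on log2(FPKM + 1), fitted over all 9 untreated libraries with a mean per group, and a gene was called at a Benjamini-Hochberg adjusted p under 0.05 over the 11305 genes. An unadjusted p under 0.05 was reached by 1668 genes. All 181 called genes had 3 EGFR-low libraries on one side of the 3 parental ones, as did 17.1% of all genes tested (9.07% with EGFR-low above, 8.02% with EGFR-low below). The difference was at least 2-fold on the log2(FPKM + 1) scale (absolute log2 fold change of at least 1) for 162 of the called genes, and its absolute size was at least 2 on that log2 scale for 36, of which 21 rose and 15 fell. The added 1 FPKM makes these values understate the change of genes with low levels. The median log2 fold change of all genes tested was 0.06 and the median standard error 0.29. The same fit called 431 genes between EGFR-low and EGFR-high cells (3.81%) and 8 between EGFR-high and parental cells (0.0708%), and the 3 comparisons share libraries. With 3 libraries against 3, an exact two-sided permutation test of a single gene cannot give a p below 0.1, so the calls rest on the spread shared across genes.

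**Figure D1:**
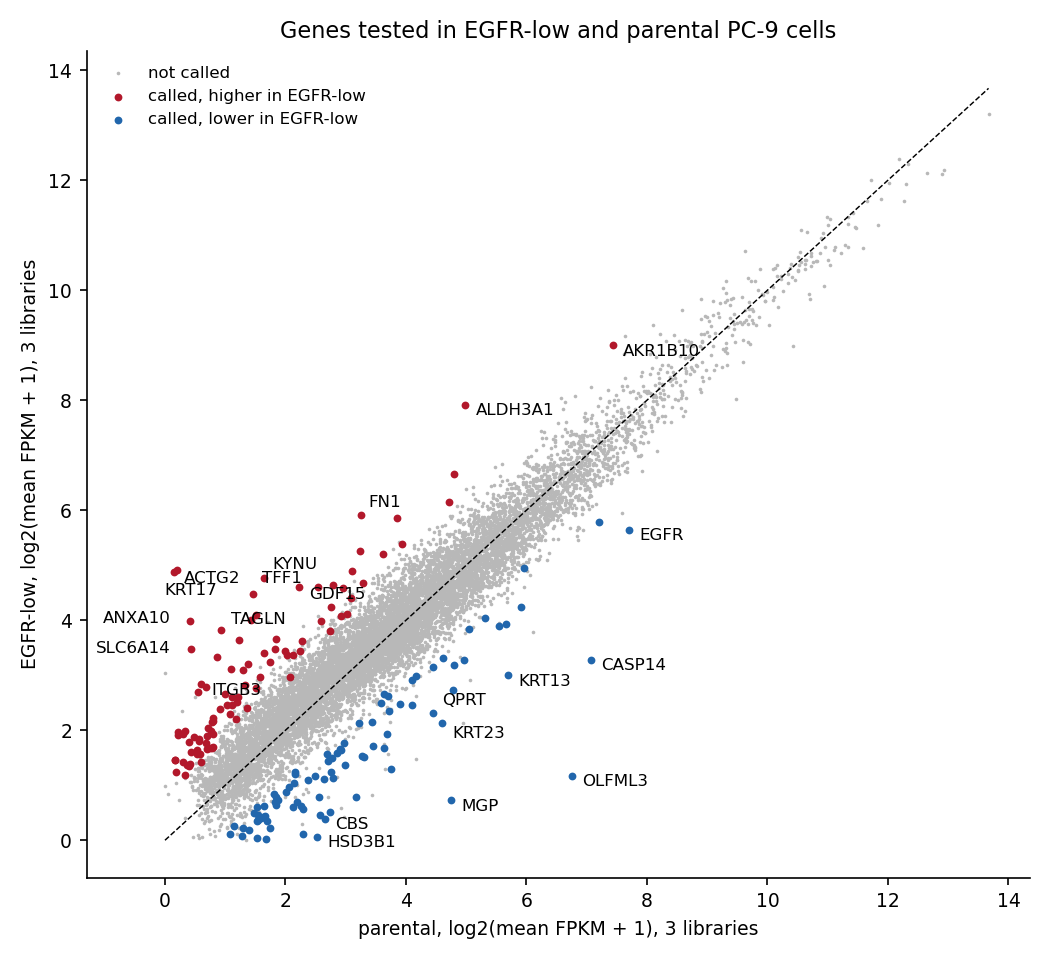
Each point is 1 of the 11305 genes tested, at its log2(mean FPKM + 1) in the 3 parental libraries (horizontal) and the 3 EGFR-low libraries (vertical), and the coloured points are the 94 called genes that rose and the 87 that fell. Most genes lie on the diagonal, ACTG2 and KRT17 stand far above it at a parental level near 0, and OLFML3, CASP14 and EGFR stand far below it.

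EGFR itself (chromosome 7), the protein the cells had been sorted on, fell in EGFR-low cells. Its FPKM was 261, 120.1 and 244 in parental replicates 1 to 3 and 60.2, 26.5 and 60.6 in EGFR-low replicates 1 to 3. Every EGFR-low library lay below every parental one, and replicate 2 was the lowest in both groups. The mean was 208 ± 76.8 in parental and 49.1 ± 19.6 in EGFR-low cells (SD, n = 3), a parental to EGFR-low ratio of 4.24 (log2 fold change -2.08, SE 0.40, limma adjusted p = 0.0261). EGFR-high cells had 269, 161 and 243 FPKM, within or beside the parental range, and EGFR-high minus parental was 0.15 on the log2 scale (limma adjusted p = 0.895). In the main fit the EGFR call depended on single libraries. The limma adjusted p was 0.141 without parental replicate 1 and 0.108 without parental replicate 3. It was 0.0659, 0.0544 and 0.0622 without EGFR-low replicates 1, 2 and 3. With all libraries kept, the limma adjusted p was 0.00122 when a term for replicate number was added to the fit. It was 0.000958 with the GC trend removed, and 4.11e-05 with both.

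Of the 8 ERBB-family and related receptor genes tested only EGFR was called. ERBB3, the kinase-impaired partner that recruits PI3K, had FPKM of 13.3, 12.6 and 9.96 in parental and 25.1, 20.96 and 25.0 in EGFR-low cells. The libraries did not overlap, but the difference was not called (log2 fold change 0.94, limma adjusted p = 0.0847), and it passed with the GC trend removed (0.79, limma adjusted p = 0.0396). ERBB2, the ligandless partner receptor, was likewise higher in each EGFR-low library, at 18.98, 15.6 and 20.7 FPKM in EGFR-low and 12.2, 10.99 and 11.7 FPKM in parental libraries, without being called (log2 fold change 0.61, limma adjusted p = 0.238). With the GC trend removed the ERBB2 difference was 0.30. On the ligand side all 5 genes tested had a negative log2 fold change, with a median of -0.66 against 0.06 for all genes, and none was called. HBEGF, the membrane-anchored heparin-binding ligand, read 17.3, 18.3 and 14.3 FPKM in parental and 10.6, 7.998 and 8.38 in EGFR-low cells (log2 fold change -0.82, limma adjusted p = 0.111), and passed with the GC trend removed (-0.90, limma adjusted p = 0.0141). TGFA showed the same arrangement at 20.7, 20.5 and 17.5 against 12.4, 13.2 and 13.2 FPKM (log2 fold change -0.56, limma adjusted p = 0.261). Epiregulin (EREG, -0.74) and amphiregulin (AREG, -0.66) also had non-overlapping libraries, so 4 of 5 ligand genes lay below the parental libraries, where 8.02% of all genes did. Betacellulin (BTC) overlapped, at 1.93, 1.74 and 2.34 against 1.26, 2.41 and 1.12 FPKM.

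Among 23 ERK target and feedback genes, 10 had positive and 13 negative log2 fold changes, the median was -0.07 and 1 gene was called. FOSL1, which encodes the AP-1 subunit FRA1, fell from 59.1, 41.7 and 48.4 FPKM in parental to 20.8, 7.52 and 14.5 FPKM in EGFR-low cells (log2 fold change -1.82, SE 0.37, limma adjusted p = 0.0336). The highest EGFR-low library was at less than the lowest parental one. FOSL1 was not called without parental replicate 1 or 3, without EGFR-low replicate 2 or 3, or without EGFR-high replicate 1, which enters only through the shared spread. The ERK phosphatase DUSP6 (log2 fold change 0.36), the feedback inhibitor SPRY2 (0.44), MYC (-0.37) and cyclin D1 (CCND1, -0.59) were not called.

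Most genes with the largest increases had low levels in parental cells. Where values are joined by "against" here and below, the parental replicates 1 to 3 come first and the EGFR-low replicates 1 to 3 second. The gene naming took the 15 largest log2 fold changes in each direction among called genes with at least 2 FPKM in the higher group. ACTG2 (chromosome 2), the smooth muscle γ-actin, went from 0.148, 0 and 0.173 FPKM in parental cells to 28.9, 16.6 and 39.5 in EGFR-low cells (log2 fold change 4.65, SE 0.30, limma adjusted p = 3e-05). KRT17, a keratin of basal and wounded epithelium, was at 0.451 FPKM in parental replicate 1, at a vanishingly small value in replicate 2 and listed at 0 in replicate 3, and at 42.2, 11.2 and 34.0 FPKM in the EGFR-low libraries (log2 fold change 4.54, SE 0.42, limma adjusted p = 0.000405). Both genes were near 0 in every parental library, and among the EGFR-low libraries both were lowest in replicate 2. ANXA10, an annexin typical of gastric epithelium, read 0.362, 0.397 and 0.252 FPKM in parental and 13.96, 18.0 and 12.8 in EGFR-low cells, with EGFR-low libraries close together (log2 fold change 3.56, SE 0.19, limma adjusted p = 5.7e-06). TFF1, a trefoil peptide secreted with gastric mucus, read 0.844, 3.85 and 0.579 against 24.8, 18.5 and 20.7 FPKM (log2 fold change 3.20, SE 0.36, limma adjusted p = 0.00146), and parental replicate 2 was the highest of its group. TFF2, its neighbour in the same gene cluster, read 0.844, 2.46 and 0.758 against 9.79, 15.2 and 9.32 FPKM, again with parental replicate 2 on top (log2 fold change 2.44, limma adjusted p = 0.00215).

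KYNU encodes kynureninase of tryptophan breakdown. Its parental libraries were nearly equal at 2.04, 2.14 and 2.15 FPKM, against 22.1, 32.4 and 24.5 FPKM in EGFR-low cells (log2 fold change 3.12, SE 0.23, limma adjusted p = 6.46e-05). ALDH3A1, an aldehyde dehydrogenase of epithelial surfaces, was already abundant in parental cells at 37.8, 41.5 and 12.5 FPKM and reached 278, 183 and 262 FPKM in EGFR-low cells (log2 fold change 3.08, SE 0.41, limma adjusted p = 0.00365), the highest level of the 15 genes. SLC6A14, a sodium- and chloride-coupled transporter of neutral and basic amino acids, read 0.565, 0.270 and 0.233 FPKM in parental and 13.4, 12.99 and 4.24 in EGFR-low cells (log2 fold change 2.92, limma adjusted p = 0.00150), with EGFR-low replicate 3 well below the other two. SERPINB3, a serpin of squamous epithelium, read 1.96, 1.75 and 1.84 against 12.0, 24.5 and 12.0 FPKM (log2 fold change 2.51, limma adjusted p = 0.000842), although its near-identical neighbour SERPINB4 makes its counting uncertain. TERT, the catalytic subunit of telomerase, read 0.825, 1.07 and 0.540 FPKM in parental and 9.62, 4.69 and 12.98 in EGFR-low cells (log2 fold change 2.39, limma adjusted p = 0.00293). The TERT libraries did not overlap and were most spread within the EGFR-low group.

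Transgelin (TAGLN), an actin-binding protein of smooth muscle, read 0.355, 0.934 and 1.40 FPKM in parental and 13.9, 5.59 and 19.97 in EGFR-low cells (log2 fold change 2.78, SE 0.41, limma adjusted p = 0.00603). The stress-induced cytokine GDF15 read 1.93, 8.02 and 1.08 against 20.8, 20.6 and 28.998 FPKM (log2 fold change 2.67, SE 0.46, limma adjusted p = 0.0153), with parental replicate 2 closest to the EGFR-low libraries. Fibronectin (FN1), a matrix ligand of integrins, read 10.2, 3.70 and 11.6 against 78.3, 22.2 and 76.8 FPKM (log2 fold change 2.59, SE 0.52, limma adjusted p = 0.0319). The iron exporter ferroportin (SLC40A1) read 1.13, 2.84 and 1.11 against 8.39, 28.95 and 7.79 FPKM, with most of its EGFR-low level from replicate 2 (log2 fold change 2.39, limma adjusted p = 0.0285). Integrin β3 (ITGB3), which pairs with αv to bind fibronectin, vitronectin and latent TGFβ, read 0.336, 0.743 and 0.474 FPKM in parental and 4.60, 6.15 and 7.71 in EGFR-low cells (log2 fold change 2.22, SE 0.21, limma adjusted p = 0.000405). These 5 genes differed in how far they rested on single libraries. TAGLN and ITGB3 were called whichever library was left out. GDF15 was not called without parental replicate 1 or 3 or EGFR-low replicate 1 or 3, SLC40A1 not without parental replicate 1 or 3 or EGFR-low replicate 1, and FN1 not without any one of the parental libraries or EGFR-low replicate 1 or 3.

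**Figure D2:**
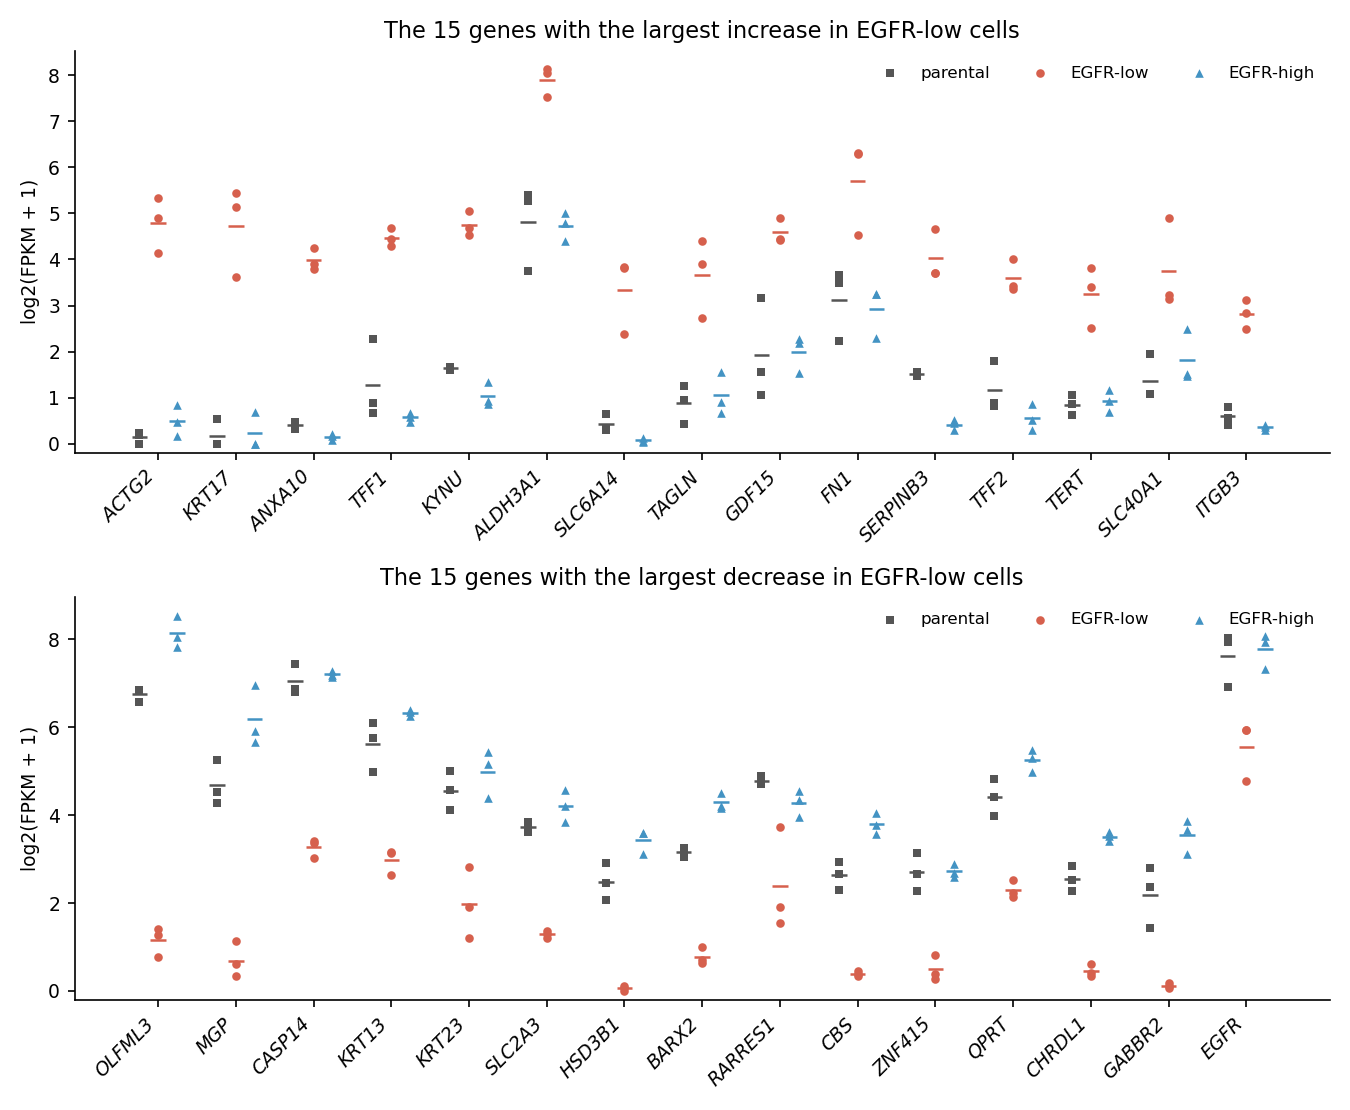
Points give log2(FPKM + 1) of each untreated library for the 15 called genes with the largest increase and the 15 with the largest decrease in EGFR-low cells, coloured by group (parental, EGFR-low, EGFR-high), with a dash at each group mean (n = 3). For all 30 genes the 3 EGFR-low points lie apart from the 3 parental points, and for the increases many parental points sit near 0.

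The 15 genes with the largest decreases had parental means from 3.92 FPKM (GABBR2) to 208 FPKM (EGFR). The naming rule itself asked for at least 2 FPKM in the higher group. OLFML3 (chromosome 1), a secreted olfactomedin-domain matrix protein, went from 114, 113 and 94.0 FPKM in parental cells to 1.41, 0.705 and 1.66 in EGFR-low cells (log2 fold change -5.60, SE 0.27, limma adjusted p = 3.86e-06), the largest absolute log2 fold change of all called genes with 1 FPKM added. As a ratio of group means it was 85.0-fold lower, against 108-fold for HSD3B1, and ACTG2 and KRT17 were 264- and 194-fold higher. The ratios of the last 3 genes divide by means near 0, so their size is uncertain. These means were 0.0437 FPKM for HSD3B1 in EGFR-low cells, and 0.107 and 0.150 FPKM for ACTG2 and KRT17 in parental cells. Matrix Gla protein (MGP), an inhibitor of calcification and of BMP signalling, went from 22.1, 37.5 and 18.3 to 0.272, 1.18 and 0.521 FPKM (log2 fold change -4.00, SE 0.38, limma adjusted p = 0.000459). CASP14, a caspase of terminal keratinocyte differentiation, went from 173, 111 and 117 to 9.68, 9.35 and 7.10 FPKM (log2 fold change -3.77, SE 0.25, limma adjusted p = 3e-05). For OLFML3, MGP and CASP14 every EGFR-low library lay far below the parental range. KRT13, a keratin of stratified non-cornified epithelium, read 67.2, 53.5 and 30.7 FPKM in parental and 7.81, 7.97 and 5.25 in EGFR-low cells (log2 fold change -2.63, limma adjusted p = 0.00146). KRT23, an acidic keratin, read 31.0, 22.6 and 16.3 against 2.76, 6.09 and 1.29 FPKM (log2 fold change -2.58, limma adjusted p = 0.0111), and was not called without parental replicate 1 or EGFR-low replicate 1. The glucose transporter GLUT3 (SLC2A3) read 13.4, 12.5 and 11.3 against 1.58, 1.30 and 1.45 FPKM, with little spread in either group (log2 fold change -2.45, limma adjusted p = 0.000459).

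HSD3B1, an enzyme of steroid hormone synthesis, read 4.45, 3.20 and 6.50 FPKM in parental and 0.0516, 0 and 0.0795 in EGFR-low cells, close to off (log2 fold change -2.41, limma adjusted p = 0.000684). BARX2, a homeobox factor of epithelial and muscle development, read 8.29, 8.48 and 7.33 against 0.558, 0.617 and 0.987 FPKM (log2 fold change -2.40, limma adjusted p = 0.000366). The retinoid-responsive gene RARRES1 read 25.2, 28.7 and 25.97 against 2.79, 12.2 and 1.92 FPKM (log2 fold change -2.39, limma adjusted p = 0.0261). In RARRES1 EGFR-low replicate 2 stood far above the other two, and the call was lost without any one of the parental libraries or EGFR-low replicate 1 or 3. Cystathionine β-synthase (CBS), which turns homocysteine to cystathionine, read 5.33, 6.67 and 3.95 FPKM in parental, 0.378, 0.260 and 0.306 in EGFR-low and 12.8, 10.9 and 15.5 in EGFR-high cells (EGFR-low minus parental -2.24, limma adjusted p = 0.000684). ZNF415, a zinc finger gene, read 3.86, 5.35 and 7.88 against 0.214, 0.770 and 0.313 FPKM (log2 fold change -2.20, limma adjusted p = 0.00160). QPRT, which makes a nicotinate nucleotide from quinolinate in NAD synthesis, read 20.5, 27.4 and 14.9 against 3.68, 4.78 and 3.39 FPKM (log2 fold change -2.12, limma adjusted p = 0.00273). It lies downstream of kynureninase in the same pathway of tryptophan breakdown, so these enzymes moved in opposite directions. CHRDL1, a secreted BMP antagonist, read 6.14, 4.78 and 3.83 against 0.533, 0.271 and 0.326 FPKM (log2 fold change -2.09, limma adjusted p = 0.000684), and GABBR2, a subunit of the GABA-B receptor, read 4.15, 1.69 and 5.92 against 0.127, 0.0421 and 0.0880 FPKM (log2 fold change -2.08, limma adjusted p = 0.00954). GABBR2 was not called without parental replicate 1. EGFR completed this group.

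Gene lists gave 731 distinct tested members, of which 41 were called, 24 up and 17 down. The lists and their members were chosen with earlier results of these data known, so their shares called are no independent support. The lists below are described by counts and medians, beside 1.60% of all genes called in either direction and a median of 0.06. Members such as ACTG2, KRT17, ANXA10, ITGB3 and SLC6A14 stayed below 1 FPKM in every untreated parental and EGFR-high library. They passed the filter only through the EGFR-low libraries, where they are high, which can raise the shares and medians of their lists.

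Gastric and mucinous genes encode secreted and membrane mucins, trefoil peptides and markers of gastric-type epithelium, a differentiation pattern seen in part of lung adenocarcinomas. Of 17 tested, 5 rose (29.4%), none fell, 15 had a positive log2 fold change and 10 had EGFR-low libraries all above the parental ones, where 9.07% of all genes did. The list's median was 1.07, and 1.01 with the GC trend removed. ANXA10, TFF1 and TFF2 are given above. The membrane mucin MUC4 read 0.591, 1.504 and 1.05 FPKM in parental and 4.81, 4.53 and 4.23 in EGFR-low cells (log2 fold change 1.46, SE 0.21, limma adjusted p = 0.00603), and lost its call with the GC trend removed. VSIG1, a junctional adhesion protein of gastric epithelium, read 0.182, 0.187 and 0.343 against 3.11, 2.60 and 2.69 FPKM (log2 fold change 1.62, SE 0.16, limma adjusted p = 0.000493). VSIG1 was near-absent in parental cells and uniform over the EGFR-low libraries. The carcinoembryonic adhesion molecule CEACAM6 was the most abundant of those named, at 470.0, 366 and 313 FPKM in parental and 842, 765 and 777 in EGFR-low cells. It had non-overlapping libraries but was not called (log2 fold change 1.07, limma adjusted p = 0.07996), and passed with the GC trend removed (limma adjusted p = 0.0176). SPDEF, a transcription factor of goblet cell differentiation, read 1.52, 3.44 and 0.959 against 8.11, 5.96 and 9.56 FPKM, without a call (log2 fold change 1.65, limma adjusted p = 0.0740), and passed with the GC trend removed (1.19, limma adjusted p = 0.00411).

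NRF2 is a transcription factor that is released from KEAP1 under oxidative stress, binds antioxidant response elements with small MAF partners, and drives genes for glutathione synthesis, NADPH production and detoxification. Of 32 NRF2 targets tested, 31 had a positive log2 fold change, 20 had EGFR-low libraries all above the parental ones (9.07% of all genes), 2 rose (6.25%) and none fell. The median was 0.80, and 0.70 with the GC trend removed, where the median of all genes was 0.00461. AKR1B10, an aldo-keto reductase, read 211, 164 and 139 FPKM in parental and 486, 511 and 537 in EGFR-low cells (log2 fold change 1.59, SE 0.25, limma adjusted p = 0.00950). It was not called without EGFR-low replicate 1 or 3, and its near copy AKR1B15 makes its counting uncertain. ALDH3A1, given above, was the other call. Heme oxygenase 1 (HMOX1) read 1.93, 3.55 and 1.35 against 10.1, 6.56 and 27.5 FPKM, with EGFR-low replicate 3 the highest, and missed the threshold (log2 fold change 2.09, limma adjusted p = 0.0573). AKR1C1 read 205, 288 and 102 against 419.9, 718 and 588 FPKM (log2 fold change 1.62, limma adjusted p = 0.0942), and shares near-identical sequence with AKR1C2 and AKR1C3. 6-phosphogluconate dehydrogenase (PGD), a source of NADPH, read 100.5, 92.7 and 95.2 against 278, 169 and 242 FPKM (log2 fold change 1.22, limma adjusted p = 0.0742). The cystine transporter SLC7A11 (log2 fold change 1.16, limma adjusted p = 0.0919) and the glutathione peroxidase GPX2 (log2 fold change 1.14, limma adjusted p = 0.101, with FPKM of 96.2, 76.6 and 60.1 in parental and 209, 160.4 and 145 in EGFR-low cells) were not called either. With the GC trend removed, PGD, SLC7A11, HMOX1, CYP4F11 and OSGIN1 passed (limma adjusted p of 0.0400, 0.0103, 0.0173, 0.0343 and 0.0285 in that order).

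**Figure D3:**
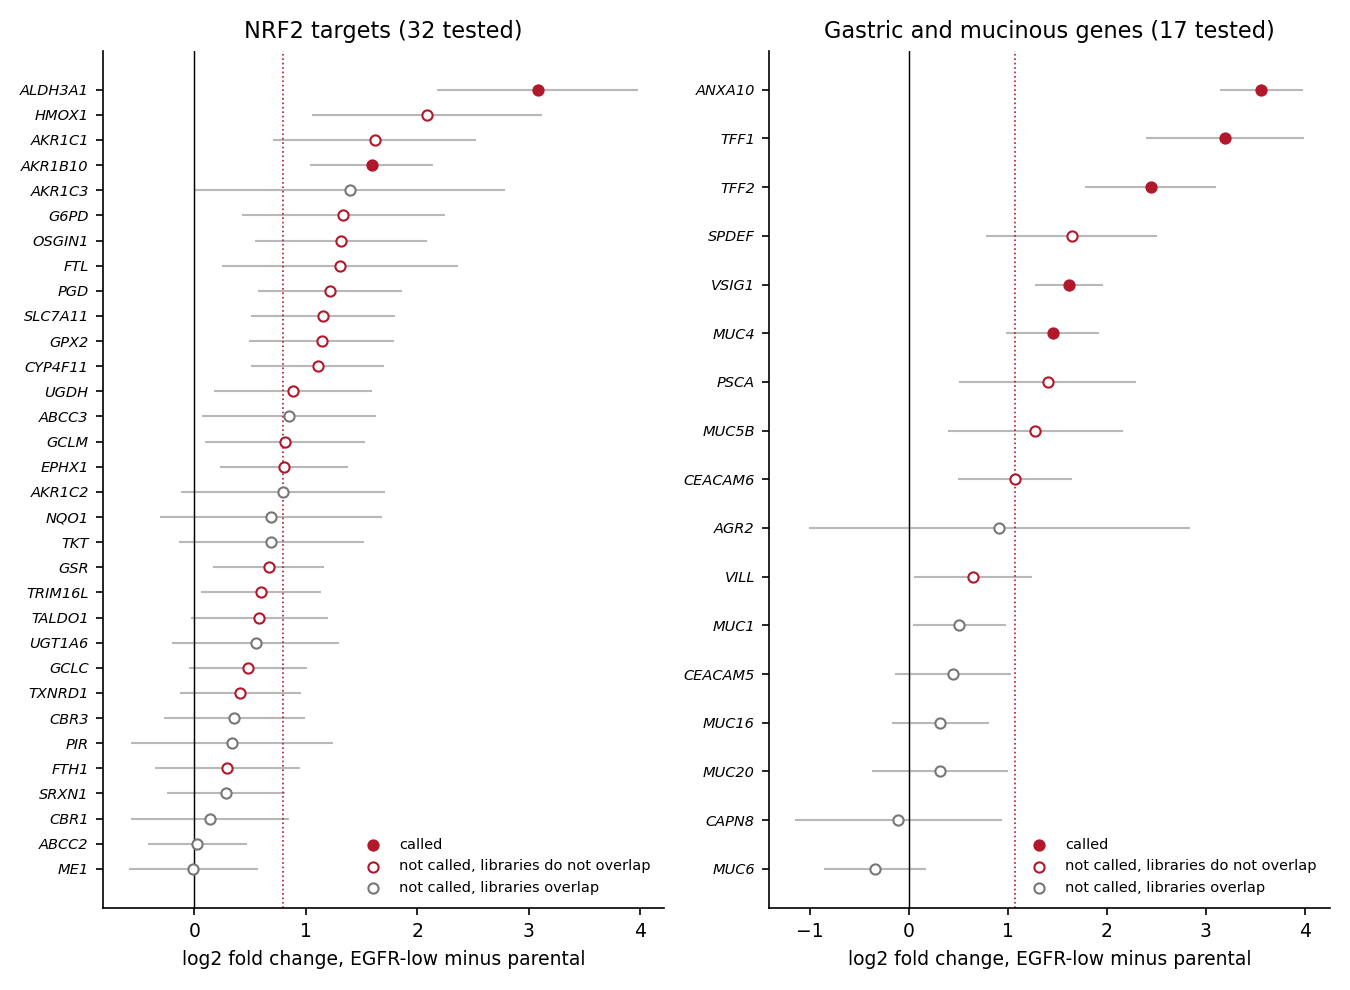
Each point is the EGFR-low minus parental log2 fold change of a gene of the NRF2 target list (32 tested) or the gastric and mucinous list (17 tested), with a bar for its 95% confidence interval from the fit, filled where the gene was called, and a dotted red line at the list's median (0.80 and 1.07). Nearly all points lie to the right of 0, while many intervals reach 0 and 2 NRF2 targets and 5 gastric and mucinous genes are filled.

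The antioxidant response element is commonly written around the core TGACNNNGC. It was searched on both strands of the 250 bases before the RefSeq start sites (build GRCh38.p14), where 10.91% of 35116 promoters hold it. Of the 22 tested NRF2 targets with a promoter in the table, 7 hold it: CBR1, CYP4F11, GCLM, GPX2, ME1, PGD and TXNRD1. A match is a description of letters and no evidence of binding. The promoters of GPX2 (chr14:64942746-64942995, minus strand) and CYP4F11 (chr19:15934868-15935117, minus strand) are shown because both genes lay above the parental range in every EGFR-low library. They are written 5′ to 3′ on the gene's strand, and the capitals mark the match, which here lies on the opposite strand.
GPX2: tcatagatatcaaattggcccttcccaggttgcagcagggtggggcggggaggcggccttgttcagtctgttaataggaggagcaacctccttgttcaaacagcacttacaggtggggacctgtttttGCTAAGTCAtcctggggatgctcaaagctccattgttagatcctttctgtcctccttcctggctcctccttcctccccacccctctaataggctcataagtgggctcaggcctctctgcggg
CYP4F11: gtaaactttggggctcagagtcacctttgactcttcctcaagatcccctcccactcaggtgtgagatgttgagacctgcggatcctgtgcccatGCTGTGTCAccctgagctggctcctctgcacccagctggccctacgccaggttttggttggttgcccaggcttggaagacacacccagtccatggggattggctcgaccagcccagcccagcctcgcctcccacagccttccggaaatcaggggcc

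CYP4F11, a cytochrome P450 that hydroxylates fatty acids and vitamin K, read 10.4, 15.5 and 7.35 FPKM in parental and 25.7, 21.3 and 25.3 in EGFR-low cells (log2 fold change 1.11, limma adjusted p = 0.0791). GCLM, the modifier subunit of the enzyme that starts glutathione synthesis, read 108, 54.7 and 102 against 156, 142 and 149 FPKM (log2 fold change 0.81, limma adjusted p = 0.280).

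Contractile and smooth muscle genes are driven by serum response factor and its myocardin-family partners, and mark myofibroblasts and smooth muscle. Of 11 tested, 3 rose (27.3%), none fell and the median was 0.45. Besides ACTG2 and TAGLN, the regulatory myosin light chain MYL9 read 0.314, 0.0957 and 0.0801 FPKM in parental and 3.65, 1.05 and 4.01 in EGFR-low cells (log2 fold change 1.65, SE 0.30, limma adjusted p = 0.0191), and lost its call without parental replicate 1 or 3 or EGFR-low replicate 1 or 3. The better known smooth muscle α-actin ACTA2 stayed below the filter, at 0.166, 0.191 and 0.0887 FPKM in parental and 0.326, 0.267 and 0.433 in EGFR-low cells. The actin genes ACTG2 and ACTA2 are near-identical in sequence, which makes their assignment uncertain. Tropomyosin 1 (TPM1) lay the other way, at 226, 166 and 328 FPKM in parental and 111, 94.4 and 105 in EGFR-low cells, without overlap and without a call (log2 fold change -1.15, limma adjusted p = 0.105). Calponin 2 (CNN2) differed by 1.42 on the log2 scale (limma adjusted p = 0.0967). Both TPM1 and CNN2 passed with the GC trend removed (-1.11 and 1.17, limma adjusted p = 0.0297 and 0.0208). DCN and LUM, fibroblast matrix genes, were at 0 in all 6 libraries.

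The CArG box, the site of serum response factor, is present in the 250-base window of 1.159% of 35116 promoters. Of 9 contractile genes with a promoter in the table, ACTG2, CNN2 and TPM4 hold it. Among called genes with a promoter, 3 of the 66 that rose (ACTG2, CAPN13 and GBP1) and 0 of the 59 that fell hold it. The ACTG2 promoter (chr2:73892758-73893007, plus strand, GRCh38.p14) is shown because ACTG2 had the largest increase on the log2(FPKM + 1) scale, and the capitals mark the CArG boxes, which start 110 and 73 bases before the RefSeq start.
ACTG2: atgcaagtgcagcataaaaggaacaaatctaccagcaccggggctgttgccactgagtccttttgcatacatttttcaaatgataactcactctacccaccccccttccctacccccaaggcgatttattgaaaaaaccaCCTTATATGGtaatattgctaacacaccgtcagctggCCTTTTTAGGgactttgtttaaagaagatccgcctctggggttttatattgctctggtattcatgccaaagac

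Keratins form the intermediate filaments of epithelial cells, with KRT8 and KRT18 in simple epithelium and KRT5, KRT13 and KRT17 in basal or stratified epithelium. Of 17 keratins tested KRT17 rose and KRT13 and KRT23 fell (17.6% called), and the median was 0.07. KRT5 read 95.9, 29.2 and 78.9 FPKM in parental and 13.8, 4.72 and 19.96 in EGFR-low cells, with no overlap and no call (log2 fold change -2.35, limma adjusted p = 0.0657), and passed with the GC trend removed (limma adjusted p = 0.0225). KRT8 overlapped at 1145, 607 and 818 against 865, 525 and 721 FPKM, as did KRT18 at 700.0, 434 and 349 against 701, 354 and 701 FPKM. KRT17 shares sequence with KRT16 and with copies elsewhere, so a part of its count is uncertain. None of 26 epithelial genes was called (median 0.41, 0.15 with the GC trend removed). E-cadherin (CDH1) read 60.5, 42.2 and 60.0 FPKM in parental and 85.8, 56.8 and 86.3 in EGFR-low cells (log2 fold change 0.48, limma adjusted p = 0.423). EPCAM read 426, 289 and 434 against 292, 259.9 and 261 FPKM (log2 fold change -0.47, limma adjusted p = 0.407). Of 10 mesenchymal genes FN1 was called, and vimentin (VIM) differed by -0.64 on the log2 scale (limma adjusted p = 0.367).

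Integrins are αβ heterodimers that tie cells to the matrix, and αv integrins also release TGFβ from its latent complex. Of 14 chains tested only ITGB3 was called (7.14%). Its partner ITGAV read 15.9, 16.3 and 15.7 FPKM in parental and 18.5, 23.0 and 23.7 in EGFR-low cells. These libraries did not overlap, but the difference was small against the spread of the fit (log2 fold change 0.42, limma adjusted p = 0.383). ITGA5, the α chain of the main fibronectin receptor, read 8.94, 7.61 and 5.50 against 24.4, 11.4 and 30.5 FPKM, without overlap and without a call (log2 fold change 1.39, limma adjusted p = 0.0837), and passed with the GC trend removed (limma adjusted p = 0.00820). None of the 20 TGFβ ligand, latency, receptor and SMAD genes was called. TGFB2 read 15.4, 7.20 and 16.1 FPKM in parental and 16.4, 17.5 and 17.5 in EGFR-low cells (log2 fold change 0.46, limma adjusted p = 0.479), and parental replicate 2 alone lay well below the others. TGFB1 read 10.0, 6.11 and 5.27 against 12.0, 6.44 and 13.1 FPKM, with overlap (log2 fold change 0.49, limma adjusted p = 0.504, and a log2 fold change of 0.07 with the GC trend removed), and LTBP1, which anchors latent TGFβ in the matrix, read 6.03, 2.42 and 3.13 against 10.0, 4.69 and 11.2 FPKM (log2 fold change 0.98, limma adjusted p = 0.218). TGFB3 stayed below the filter at 0.305, 0.367 and 0.198 against 0.383, 0.494 and 0.381 FPKM. Endoglin (ENG, -1.33), the activin subunit INHBA (-1.08) and SMAD3 (-0.81) had EGFR-low libraries below the parental ones without a call (limma adjusted p = 0.0908, 0.0838 and 0.226). All 3 passed with the GC trend removed (0.000667, 0.0216 and 0.0352). Of 22 TGFβ-induced genes FN1 and TAGLN were called (9.09%), 17 had positive log2 fold changes and the median was 0.39, or 0.22 with the GC trend removed.

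In the BMP branch, which competes with TGFβ for SMAD4, 3 of 13 genes were called (23.1%). The type I receptor BMPR1B rose from 0.672, 0.2397 and 0.400 to 2.83, 2.17 and 1.38 FPKM (log2 fold change 1.11, SE 0.23, limma adjusted p = 0.0367). Both secreted antagonists in the list fell, CHRDL1 as above and noggin (NOG) from 12.2, 12.8 and 11.7 to 3.10, 2.69 and 6.47 FPKM (log2 fold change -1.45, SE 0.27, limma adjusted p = 0.0224). NOG lost its call without parental replicate 1 or 3 or EGFR-low replicate 1 or 2, and BMPR1B without any one parental library, EGFR-low replicate 1 or 2 or EGFR-high replicate 3. Of 10 fibronectin and matricellular genes FN1 rose and OLFML3 and MGP fell (30%). Osteopontin (SPP1) was abundant, at 178, 287 and 119 FPKM in parental and 417, 653 and 305 in EGFR-low cells (log2 fold change 1.25, limma adjusted p = 0.175). It was not called, but passed with the GC trend removed (1.38, limma adjusted p = 0.0210). Of 11 collagen chains the 2 neighbouring basement membrane chains rose (18.2%), COL4A5 from 4.85, 5.84 and 6.59 to 20.8, 14.9 and 18.2 FPKM (log2 fold change 1.48, SE 0.23, limma adjusted p = 0.00829) and COL4A6 from 0.369, 0.393 and 0.261 to 2.30, 1.03 and 2.79 FPKM (log2 fold change 1.13, limma adjusted p = 0.0308). They lie head to head on chromosome X. COL4A5 was not called without parental replicate 1 or EGFR-low replicate 1, and COL4A6 kept its call only without parental replicate 2 or EGFR-low replicate 2. The collagen median of 0.59 was 0.06 with the GC trend removed. Of 34 matrix protease and inhibitor genes cathepsin V (CTSV, log2 fold change -1.28, limma adjusted p = 0.0205) and the lysyl oxidase LOXL4 (log2 fold change -1.20, limma adjusted p = 0.00846) fell. Neither was called without EGFR-low replicate 1, and CTSV also not without parental replicate 1 or 3 or EGFR-low replicate 3.

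The list of cadherins and neural adhesion genes also holds other neural genes, MAP2 and GABBR2 among them. Its members moved in both directions, with 4 of 13 called (30.8%). MAP2, a microtubule-binding protein of dendrites, rose from 1.52, 0.885 and 1.01 FPKM in parental to 8.08, 7.495 and 7.29 in EGFR-low cells (log2 fold change 2.02, SE 0.19, limma adjusted p = 0.000405), with little spread in either group. The adhesion molecule NCAM1 rose from 0.562, 0.369 and 0.430 to 2.31, 1.23 and 2.31 FPKM (log2 fold change 1.00, limma adjusted p = 0.0261), but was not called without any one parental library, EGFR-low replicate 1 or 3 or EGFR-high replicate 2. L1CAM fell from 3.39, 2.24 and 1.41 to 0.229, 0.0546 and 0.237 FPKM (log2 fold change -1.47, limma adjusted p = 0.0205), and lost its call without parental replicate 1 or any one EGFR-low library. GABBR2 fell as above. CNTN1, a contactin bound to axon surfaces, read 1.204, 0.508 and 1.70 against 3.26, 2.32 and 3.69 FPKM, without a call (log2 fold change 0.96, limma adjusted p = 0.0791), and passed with the GC trend removed (limma adjusted p = 0.0127).

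Single members of other lists were called. Of 20 amino acid transporters SLC6A14 rose and the glutamate transporter SLC1A3 fell, from 13.7, 14.4 and 20.3 FPKM in parental to 6.94, 5.36 and 7.37 in EGFR-low cells (log2 fold change -1.17, limma adjusted p = 0.0336). SLC1A3 lost its call without any one library but parental replicate 2. Of 16 cytokines and chemokines GDF15 and VEGFC rose, and the lymphatic growth factor VEGFC read 1.74, 0.848 and 1.33 against 6.16, 3.76 and 5.29 FPKM (log2 fold change 1.39, limma adjusted p = 0.0153). Of 18 BCL2 family genes only BMF, a BH3-only activator of apoptosis, was called, at 0.639, 0.901 and 0.681 against 2.91, 3.46 and 4.11 FPKM (log2 fold change 1.36, limma adjusted p = 0.0137). BIM (BCL2L11), the BH3-only protein that ERK signalling keeps low, read 5.63, 3.98 and 5.78 FPKM in parental and 7.28, 6.51 and 8.58 in EGFR-low cells, with no overlap and no call (log2 fold change 0.47, limma adjusted p = 0.378). VEGFC lost its call without parental replicate 3 or EGFR-low replicate 1 or 3, and BMF without parental replicate 1 or 3 or EGFR-low replicate 3. Among 43 ATF4 response genes GDF15 rose and CBS fell, and of 33 hypoxia and glycolysis genes only SLC2A3 was called. Of 7 MAGE-A and XAGE antigens MAGEA9 fell, from 2.14, 2.25 and 1.86 to 0.268, 0.230 and 0.529 FPKM (log2 fold change -1.20, limma adjusted p = 0.00603), with a near-identical copy in MAGEA9B and without a call when EGFR-low replicate 1 was left out. Of 25 S100 and annexin genes ANXA10 was called, and S100A8, a subunit of calprotectin, read 10.5, 31.1 and 9.37 against 0.449, 4.03 and 0.872 FPKM (log2 fold change -2.71, limma adjusted p = 0.0649). S100A8 was not called, but passed with the GC trend removed (-2.81, limma adjusted p = 0.00976).

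Interferon-stimulated genes include antiviral effectors and guanylate-binding GTPases, and their response elements repeat GAAA. Of 30 tested, 3 were called (10%), in both directions. The interferon-inducible GTPases GBP1 and GBP2 rose, GBP1 from 0.848, 0.649 and 0.690 FPKM in parental to 3.89, 4.12 and 3.00 in EGFR-low cells (log2 fold change 1.43, SE 0.20, limma adjusted p = 0.00570) and GBP2 from 1.58, 1.44 and 1.32 to 7.36, 10.5 and 4.68 FPKM (log2 fold change 1.74, SE 0.26, limma adjusted p = 0.00603). BST2 (tetherin), which holds budding virus at the membrane, fell from 0.986, 2.89 and 1.81 to 0, 0 and 0.0938 FPKM (log2 fold change -1.44, SE 0.28, limma adjusted p = 0.0285). BST2 was at or near 0 in every EGFR-low library, and it lost its call without parental replicate 2 or 3 or any one EGFR-low library. Of the list, 8 genes had EGFR-low libraries all below the parental ones and 2 all above, against 8.02 and 9.07% of all genes, and the median was -0.12. IFIT5 (log2 fold change -1.05, limma adjusted p = 0.0519) and OAS3 (log2 fold change -0.73, limma adjusted p = 0.172) were among the 8 and were not called, but passed with the GC trend removed (limma adjusted p = 0.0302 and 0.0321). None of 28 MHC class I and antigen processing genes was called, and the checkpoint ligand PD-L1 (CD274) had the largest difference among them, -0.81 (limma adjusted p = 0.0837), which passed with the GC trend removed (-0.66, limma adjusted p = 0.0465).

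A pair of GAAA motifs with any 2 bases between them, searched on both strands, was found in 3.021% of 35116 promoters and in 14 of the 24 interferon-stimulated genes with a promoter in the table. BST2 and GBP1 both hold it, although one fell and the other rose, and their promoters are shown side by side for that reason. BST2 (chr19:17405631-17405880, minus strand) has overlapping matches 130 and 124 bases before the RefSeq start, and GBP1 (chr1:89065209-89065458, minus strand) has a match on the opposite strand 127 bases before it (GRCh38.p14, capitals mark the matches).
BST2: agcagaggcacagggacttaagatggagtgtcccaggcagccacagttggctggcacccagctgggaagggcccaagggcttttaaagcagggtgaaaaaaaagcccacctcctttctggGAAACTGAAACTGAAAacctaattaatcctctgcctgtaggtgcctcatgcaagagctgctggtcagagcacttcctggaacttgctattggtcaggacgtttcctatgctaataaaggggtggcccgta
GBP1: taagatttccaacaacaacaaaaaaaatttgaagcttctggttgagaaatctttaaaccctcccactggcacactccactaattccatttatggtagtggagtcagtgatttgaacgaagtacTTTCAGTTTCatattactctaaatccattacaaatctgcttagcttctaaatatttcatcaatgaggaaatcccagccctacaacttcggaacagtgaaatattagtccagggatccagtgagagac

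YAP and TEAD factors drive genes of growth and adhesion when cells spread. Of 20 targets none was called, 16 had negative log2 fold changes and 7 had EGFR-low libraries all below the parental ones (8.02% of all genes). The median was -0.52, or -0.65 with the GC trend removed, and -0.27 without EGFR-low replicate 2. ANKRD1 read 3.26, 10.7 and 2.59 FPKM in parental and 0.420, 1.46 and 0.314 in EGFR-low cells (log2 fold change -1.76, limma adjusted p = 0.138), and CYR61, a matricellular target, differed by -0.81 on the log2 scale (limma adjusted p = 0.172), which passed with the GC trend removed (0.0220). The ectonucleotidase NT5E (log2 fold change -1.03, limma adjusted p = 0.102) did likewise (0.0216). Genes of S phase (41 tested, 32 negative, median -0.33) and of G2/M (54 tested, 37 negative, median -0.18) held no call. The S phase median was -0.06 without EGFR-low replicate 2. Of 13 mitochondrially encoded genes 12 were negative with a median of -0.55, which was -0.12 with the GC trend removed and -0.18 without EGFR-low replicate 3.

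No gene was called among the laminin chains (8 tested), lung lineage genes (11), tight junction and desmosome genes (20), WNT (17) and Notch (14) pathway genes, HOX genes (14), insulin-like growth factor genes (14), histone deacetylases (11) and genes of cholesterol (24) and fatty acid (19) synthesis. The medians of these lists lay between -0.13 and 0.47, and the members with the largest differences were LAMA4 (0.69), CEBPA (0.75), JUP (1.23), FZD2 (0.84), LFNG (1.26), HOXB3 (0.75), IGFBP2 (1.25), HDAC9 (-1.04), MVK (0.98) and SREBF1 (1.00). With the GC trend removed JUP (0.84, limma adjusted p = 0.0396) and LFNG (0.85, limma adjusted p = 0.0293) passed, and the differences of CEBPA, FZD2 and SREBF1 became 0.28, 0.39 and 0.57. The histone deacetylases had the highest, 0.47, with 9 of 11 positive, which was 0.20 with the GC trend removed.

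**Figure D4:**
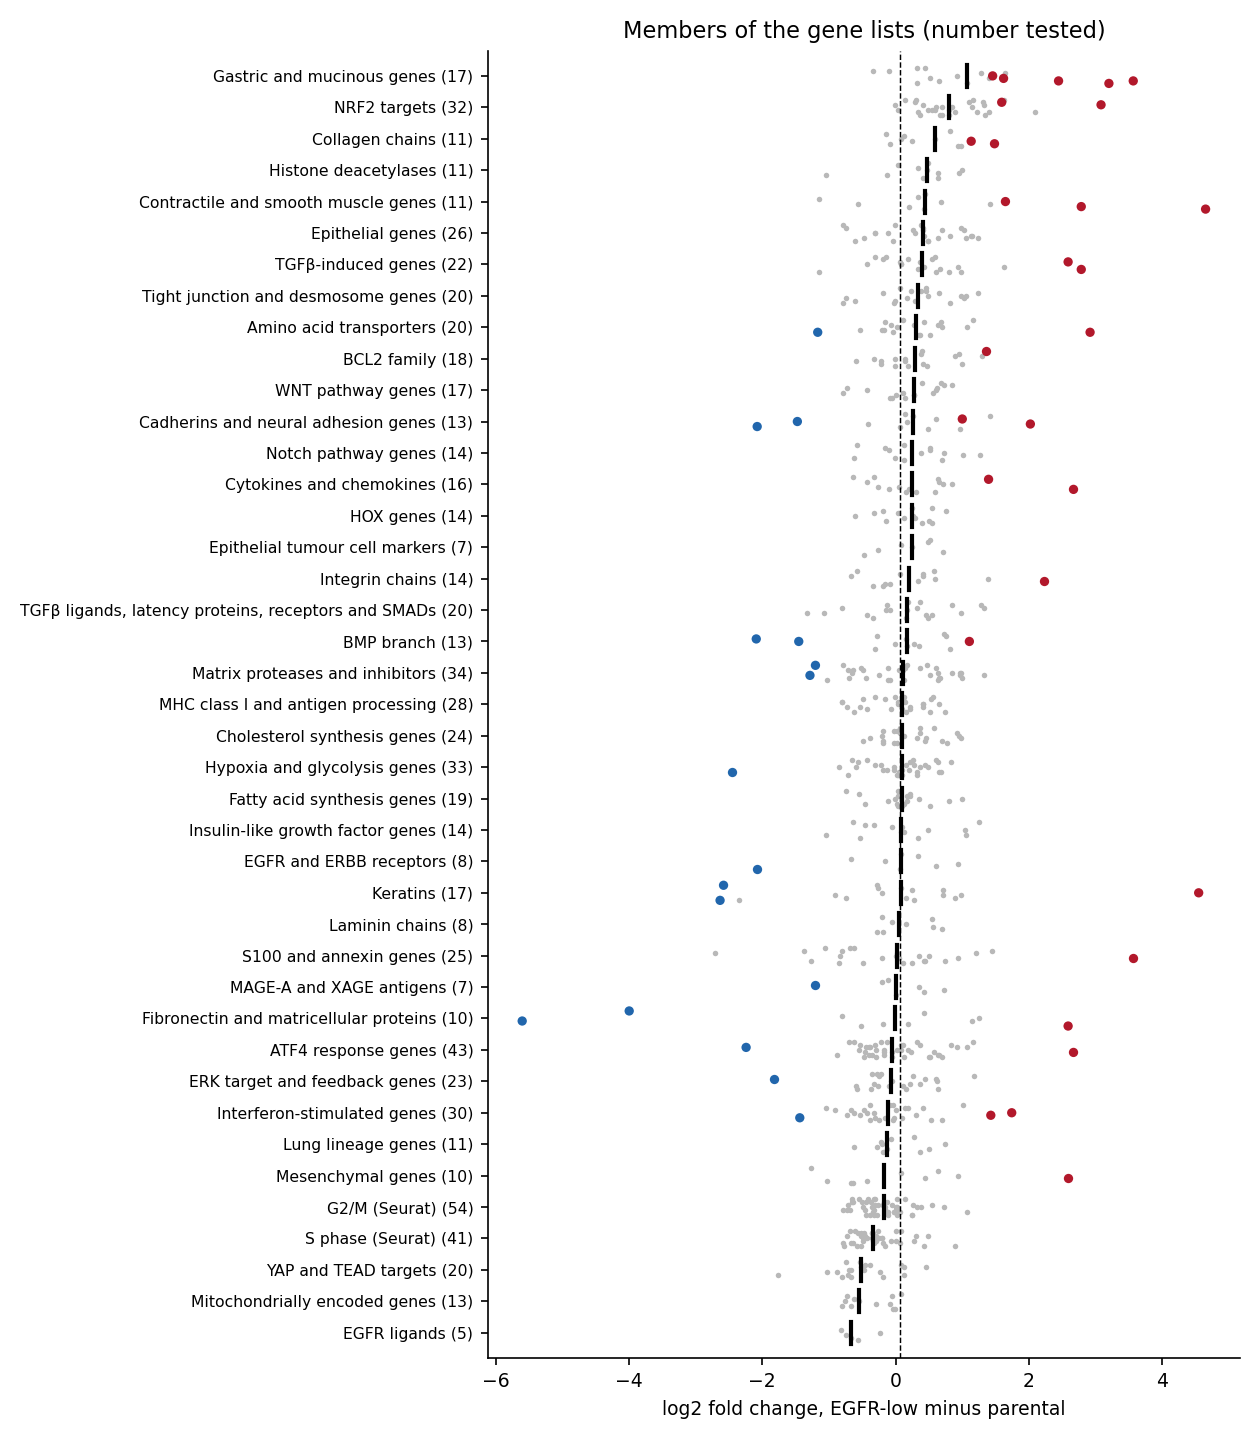
Each point is the EGFR-low minus parental log2 fold change of a list member, for lists with at least 5 members tested, coloured where the gene was called, with a black tick at the list median and a dashed line at the median of all 11305 genes (0.06). The gastric and mucinous list (1.07) and the NRF2 list (0.80) have the highest medians, and the EGFR ligands (-0.66), mitochondrially encoded genes (-0.55) and YAP and TEAD targets (-0.52) the lowest.

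The second experiment offers a look at the same genes in other EGFR-low libraries, but only against EGFR-high cells and after 72 h in DMSO. These values are therefore not the same contrast. In the values below the EGFR-low DMSO replicates come first and the EGFR-high DMSO replicates second. In DMSO, EGFR read 43.3, 17.7 and 19.3 FPKM in EGFR-low and 83.3, 152 and 109 in EGFR-high replicates 1 to 3. Of all 11305 genes, 36.8% had EGFR-low DMSO libraries all above the EGFR-high DMSO ones and 30.7% all below, against 9.07 and 8.02% between untreated EGFR-low and parental libraries.

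The 15 largest decreases and the 15 largest increases had different counts there. Of the 15 genes that fell most against parental cells, 13 had EGFR-low DMSO libraries all below the EGFR-high DMSO ones and 2 all above, with a median difference of -2.40 on the log2 scale. OLFML3 read 13.4, 0.0131 and 0.0125 against 43.9, 78.5 and 43.1 FPKM, and CASP14 42.5, 0.373 and 0.140 against 61.2, 135 and 146 FPKM. EGFR-low DMSO replicate 1 lay between the other libraries for both genes. The exceptions were CBS, at 37.5, 35.8 and 44.2 FPKM in EGFR-low and 16.7, 29.5 and 26.5 in EGFR-high DMSO cells, and ZNF415, at 16.1, 19.8 and 19.9 against 3.13, 2.75 and 8.24 FPKM. Of the 15 genes that rose most, 2 lay above, 7 below and 6 overlapped, with a median of -0.29. FN1 read 18.3, 24.7 and 25.8 against 2.76, 3.08 and 11.5 FPKM and GDF15 102, 41.1 and 57.4 against 17.3, 15.6 and 29.9 FPKM, the 2 that were higher in EGFR-low cells there too. ACTG2 was near 0 in both groups of DMSO cells, at 0.0598, 0.0156 and 0.0566 against 0.265, 0.164 and 0.0581 FPKM. ANXA10, KRT17, SERPINB3, SLC6A14 and TERT also stayed below 1 FPKM in every DMSO library of both groups. ANXA10, SERPINB3, SLC6A14 and TERT are among the 7 counted as below, so that count rests in part on very low values.

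NRF2 targets and gastric and mucinous genes lay mostly on the other side in DMSO. Of 32 NRF2 targets 1 was above and 26 below the EGFR-high DMSO libraries, with a median of -1.26. ALDH3A1 read 26.2, 3.14 and 2.07 FPKM in EGFR-low and 91.3, 139.7 and 86.2 in EGFR-high DMSO cells, and AKR1B10 29.4, 5.87 and 3.48 against 196, 157 and 92.9 FPKM. HMOX1 was the member above, at 42.1, 127 and 60.2 against 6.49, 4.14 and 21.9 FPKM. Of 17 gastric and mucinous genes 1 was above and 12 below, with a median of -1.19. In CEACAM6 the DMSO values were 125, 6.56 and 4.22 FPKM in EGFR-low and 889.9, 534 and 422 in EGFR-high cells. Untreated EGFR-low minus EGFR-high differences, which share the EGFR-low libraries with the parental comparison, had medians of 0.41 for the NRF2 targets and 1.12 for the gastric and mucinous genes. The experiments differ in time, solvent and reference, and the part of each was not tested.

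**Figure D5:**
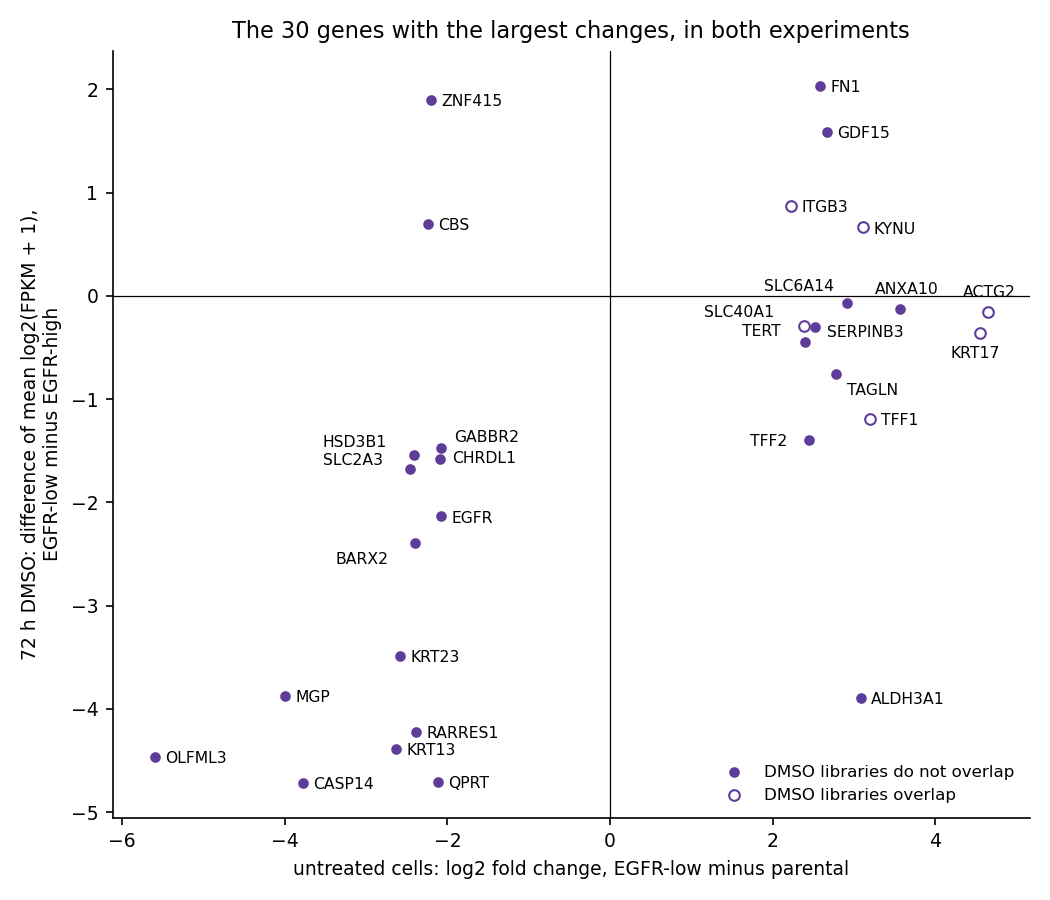
Each point is 1 of the 30 named genes, at its untreated EGFR-low minus parental log2 fold change (horizontal) and its EGFR-low minus EGFR-high difference in log2(FPKM + 1) after 72 h in DMSO (vertical), open where the EGFR-low and EGFR-high DMSO libraries overlap and filled where they do not. Of the 15 genes that fell against parental cells 13 lie below 0 on the vertical axis. Of the 15 that rose, FN1, GDF15, ITGB3 and KYNU lie above 0 and all others below it.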

How the data were processed

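Poly(A) RNA from untreated EGFR-low, EGFR-high and parental PC-9 cells and from DMSO- or vorinostat-treated EGFR-low and EGFR-high cells (3 libraries per group) was sequenced by the study. The submitters' processing notes name STAR 2.5.1b, Cufflinks 2.2.1, DESeq2 1.10.1 and build hg19. The deposited tables hold 1 value per gene and library. They were taken as FPKM made by the authors with Cufflinks, because the values are not whole and sum to similar totals, although the tables are named as counts. Depth is therefore unknown, and no interval for counting error can be given. Groups and columns followed the labels and column names.

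Genes that reached 1 FPKM in 3 or more of the 9 untreated libraries were kept, and log2(FPKM + 1) was fitted with limma 3.58.1 (R 4.3.3; trend in the variance) with a mean per group, calling a Benjamini-Hochberg adjusted p under 0.05. The study used a count model, which could not be fitted to FPKM. The named genes are 11 genes the study turns on, the 15 largest log2 fold changes each way among called genes that did not overlap and had a mean of at least 2 FPKM in the higher group, every called member of a gene list or else up to 4 with the largest difference, and defining members of a group. Cell cycle lists come from Seurat 5.3.0. The members and lists were chosen with earlier results of these data known. Gene symbols were matched to GENCODE (18656 directly, 764 by another symbol, 691 unmatched) for chromosome, GC content and length, and promoters came from RefSeq GRCh38.p14. Of the 181 called genes 30 overlap a listed gene on the other strand, MGP, TAGLN, L1CAM, RARRES1, SERPINB3 and RDH10 among them. How strand was treated in counting is not given in the sources used here.

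Alternatives were pseudocounts of 0.1 and 5, no filter or 5 FPKM, median-of-ratios and quantile scaling, only the compared groups, no trend, a replicate block, removal of a spline trend (5 degrees of freedom) on GC content and length, and leaving out each library. Replicates are stated to be independent experiments, and where they shared a day is not given. The vorinostat libraries were not used here, and some list members are not reported by name.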

Additional observations from a re-analysis of the deposited data

How the results depend on the processing

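All 181 called genes kept their sign in every fit that tested them. Of these, 56 were called in all 11 alternatives with all libraries, 60 in all 9 that leave a library out, and 38 in every fit. The 5 FPKM filter left 8590 genes, and a gene it removed was counted as not called. ITGB3, SLC6A14 and TERT were removed in this way and were called in all other fits. The count of called genes, 181 (94 higher, 87 lower), became 331 with no filter (186, 145), 82 with a 5 FPKM filter (40, 42), 107 with only the compared groups (61, 46) and 513 with the GC and length trend removed (248, 265), which kept 164 of the 181. Pseudocounts of 0.1 and 5 gave 187 and 157, median-of-ratios scaling 219, quantile normalization 202 and no mean-variance trend 146. Some named calls were lost with all libraries kept: BST2, COL4A6, GABBR2, L1CAM and SLC40A1 with a pseudocount of 5, BMPR1B with 0.1, BST2, FN1, FOSL1, RARRES1 and SLC40A1 with no filter, FOSL1 with the 5 FPKM filter, BMPR1B, NCAM1 and SLC40A1 with quantile normalization, BMPR1B, BST2, COL4A6 and NCAM1 with no mean-variance trend, MUC4 with the GC trend removed, and BMPR1B, COL4A6, CTSV, FN1, FOSL1, MYL9, NCAM1, NOG, RARRES1, SLC1A3 and SYNJ2 with only the compared groups. Leaving out a library gave 67 to 252 (higher 43 to 136, lower 24 to 116): 78 without parental replicate 1, 252 without parental replicate 2, 105 without parental replicate 3 (28 list members), 67 without EGFR-low replicate 1 and 93 without EGFR-low replicate 3. List members called, 41, became 25 with the 5 FPKM filter and 99 with the GC trend removed, and 23 to 48 with a library left out, lowest without EGFR-low replicate 1, EGFR-low replicate 3 (27) and parental replicate 1 (25). EGFR kept a log2 fold change of -2.08 but had an adjusted p of 0.0570 with no filter and 0.0529 with only the compared groups, and its value was -2.43 to -1.69 with a library left out. The cause of these changes was not tested beyond the fewer samples or other number of genes each fit uses.

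Replicate numbers were not taken as pairs in the main fit. Deviations of same-numbered EGFR-low and parental libraries correlated at 0.587, 0.416 and -0.092, so not every pair deviated together. EGFR-low replicates 1 and 2 correlated best with the parental library of their own number, but replicate 3 with parental replicate 1. Across genes, parental and EGFR-high libraries of number 1, 2 and 3 correlated at 0.988, 0.983 and 0.898, against 0.941 for parental replicates 1 and 2. A replicate block gave 525 called genes (228 higher, 297 lower) and 93 list members, and with the GC trend removed as well 2309 genes (1151, 1158) and 264 list members. Of the genes given as not called, AKR1C1, ANKRD1, APOBEC3C, CD274, CEACAM6, CNTN1, CYP4F11, ERBB3, HBEGF, HDAC9, HMOX1, IFIT5, INHBA, ITGA5, KRT5, LAMA4, NT5E, PGD, S100A8, SLC7A11, SPP1 and TPM1 were called with the block. All 181 genes kept their call with it. With the block and the GC trend removed together, ITGAV, TGFB2, LTBP1, CDH1 and BCL2L11 were called too, and TGFB1 was not. Their limma adjusted p was 0.0262, 0.0343, 0.0126, 0.0289 and 0.0193 in that order, and they were called in no other fit.

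Scaling moved the median of all genes from 0.06 to 7.68e-05 (median-of-ratios) and -0.01 (quantile), and leaving out EGFR-low replicate 2 to 0.13. The medians of the NRF2, gastric and mucinous, YAP and TEAD, EGFR ligand, interferon-stimulated, S phase, TGFβ-induced and mitochondrially encoded lists kept their sign in every alternative. The NRF2 median lay between 0.60 and 0.91 and the gastric and mucinous median between 0.59 and 1.59. Without read counts, differences in genes near 1 FPKM cannot be given a counting error.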

Other observations

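Genes of retinoid metabolism stood among the called genes outside the lists, and were chosen here after their values were seen. Retinoic acid is made from vitamin A by retinol dehydrogenases and then aldehyde dehydrogenases, and is cleared by CYP26 enzymes. RDH10, the retinol dehydrogenase of embryonic retinoic acid synthesis, rose from 12.3, 15.1 and 12.99 FPKM in parental to 58.2, 52.5 and 61.2 in EGFR-low cells (log2 fold change 2.01, limma adjusted p = 0.00170). It overlaps RPL7 on the other strand, which makes its counting uncertain. DHRS9, which also oxidises retinol, rose from 2.28, 1.89 and 0.625 to 8.11, 11.5 and 4.92 FPKM (log2 fold change 1.82, limma adjusted p = 0.0183), and CYP26B1, which breaks retinoic acid down, from 0.496, 0.399 and 0.468 to 5.98, 3.57 and 6.85 FPKM (log2 fold change 2.12, limma adjusted p = 0.000964). In all 3 genes every EGFR-low library lay above every parental one, and DHRS9 alone lost its call with a library left out (parental replicate 3 or EGFR-low replicate 1). The retinoid-responsive RARRES1 lay the other way, as described for the largest decreases. The stem cell factor gene KITLG, also chosen this way, rose from 1.80, 0.835 and 1.89 to 6.57, 5.23 and 6.44 FPKM (log2 fold change 1.52, limma adjusted p = 0.00603), and the transcription factor SOX4 from 7.57, 4.42 and 8.36 to 19.9, 19.4 and 29.3 FPKM (log2 fold change 1.63, limma adjusted p = 0.0190). SOX4 was not called without parental replicate 1 or EGFR-low replicate 1 or 3.

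APOBEC3 genes encode cytidine deaminases that edit single-stranded DNA and lie side by side on chromosome 22. They too were singled out after their values were seen. Of 5 tested, 3 fell: APOBEC3A from 3.49, 2.28 and 5.55 FPKM in parental to 0.601, 0.597 and 0.435 in EGFR-low cells (log2 fold change -1.57, limma adjusted p = 0.0120), APOBEC3B from 38.7, 62.8 and 36.0 to 10.7, 15.7 and 15.2 FPKM (log2 fold change -1.63, limma adjusted p = 0.0205) and APOBEC3D from 10.4, 9.70 and 14.2 to 1.47, 2.87 and 2.27 FPKM (log2 fold change -1.96, limma adjusted p = 0.00273). APOBEC3C (-0.73, limma adjusted p = 0.187) and APOBEC3F (-1.01, limma adjusted p = 0.107) were not called, but passed with the GC trend removed (limma adjusted p = 0.0321 and 0.0113), as did the other 3. APOBEC3A and APOBEC3B were not called without parental replicate 1 or EGFR-low replicate 1 or 3. The family members share sequence, so reads could be split between them. Genes with a ZNF symbol, and those of them on chromosome 19, were likewise counted after the called genes were seen. Of 403 tested genes with a ZNF symbol 10 fell (2.48%) and 1 rose, where 0.770% of all genes fell. Of the 198 on chromosome 19 there were 9 that fell (4.55%).

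Runs of neighbouring genes on 1 chromosome were also looked for. Runs were taken where the running median of 21 neighbouring tested genes, after removal of the GC trend, was beyond 0.5 in size over at least 10 genes. A shared direction within a run therefore follows from how the runs were chosen. How many such runs would arise by chance was not tested. On chromosome 3 the 19 genes from ZNF860 to CTDSPL were all negative in EGFR-low against parental cells, with a median of -0.75 and no call, and 18 genes from ZNF852 to ALS2CL had a median of -0.57. On chromosome 12, 22 genes from HCAR1 to ATP6V0A2 had a median of -0.52. On chromosome 6, 20 genes from ASF1A to L3MBTL3, with MAN1A1 and PKIB called, had a median of 0.60, and 19 genes from SCAF8 to ACAT2, with SYNJ2 called, 0.52. None of these runs holds EGFR. In the DMSO experiment the EGFR-low minus EGFR-high medians of the ZNF860, ZNF852, HCAR1, ASF1A and SCAF8 runs were -0.08, -0.32, -0.38, -0.67 and -0.13, in that order.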
